A study of Homo sapiens with 6 samples.

Results

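Mitochondrial ribosomal protein genes were described in MDA-MB231 cells, a line from a triple-negative breast carcinoma, after siRNA knockdown of LSD1 (symbol KDM1A), a histone demethylase. The members were all gene symbols that begin with MRPL or MRPS and go on with a number and an optional letter. They numbered 76 of the 23368 symbols in the table, 47 named for the large subunit (MRPL) and 29 for the small subunit (MRPS). RNA-seq had been made from 6 samples in 3 groups of 2: cells transfected with a control siRNA (siControl), with a first LSD1 siRNA (siL1) and with another LSD1 siRNA (siL2). All groups were the same line, grown in serum-supplemented DMEM and transfected with the same lipid reagent; siRNA sequences, dose and harvest time are not given in the sources used here. Whether duplicates were grown and transfected separately is not in the labels; the p-values therefore rest on the spread between these samples, which may be technical.

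Libraries held 22047738 to 26765079 counted reads and 15624 to 16065 detected symbols, so 3 reads corresponded to 0.112 to 0.136 CPM (a gene's counts scaled to a common library total). KDM1A, the target, had 158 and 165 CPM in siControl, fell to 27.7 and 28.1 CPM under siL1, and to 17.4 and 18.1 CPM under siL2. Its log2 fold change was −2.53 ± 0.0538 (SE) with siL1 and −3.19 ± 0.0567 with siL2 (edgeR quasi-likelihood test, adjusted p = 1.09e-11 and 2.16e-12), and siL2 lay below siL1 by a log2 difference of −0.66 (adjusted p = 4.36e-06). Markers of the line were checked: mean control levels were 3573 CPM for VIM, 710 CPM for CD44 and 1530 CPM for AXL, against 0.0227 CPM for ESR1 and 0.0438 CPM for CDH1. PTPRC and CD3E, markers of blood cells, were at 0 CPM in the control libraries. ERBB2 and EPCAM, listed as low markers of the line, stood at 57 and 11.5 CPM.

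Mitochondria have their own ribosome, which translates the few proteins encoded by mitochondrial DNA, all of them core parts of the respiratory chain and ATP synthase. Its RNAs come from mitochondrial DNA, but each of its proteins is encoded in the nucleus, made in the cytosol and imported, so that the particle depends on many separate nuclear genes being expressed together. The small subunit binds the mRNA and holds the decoding site; the large subunit forms the peptide bond and carries the tunnel through which the new chain leaves. Many of the proteins have bacterial homologues and the rest arose in the mitochondrial lineage. The genes are expressed in nearly every cell type.

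Promoters of members often hold short cores near the start, and 7 are shown as examples. Other members described below, MRPS16 and MRPL42 among them, also hold a core near the start and are not shown. RefSeq promoters (GRCh38.p14, 250 bases before to 50 after the gene start) were available for 67 of the 76 members and for 9318 of the genes tested. Each line gives 110 bases, from 80 before the start to 29 after it, 5′ to 3′ on the gene's strand; capitals mark CCGGAAG, a core bound by ETS factors, or AAGATGG, a core bound by YY1, on either strand (CTTCCGG and CCATCTT on the other). MRPS10 and MRPS18A hold a match to each core, MRPL33, MRPS22 and MRPS26 to the ETS core, and MRPS30 and MRPL49 to the YY1 core.
MRPS10 (chr6:42217832-42217941, minus strand): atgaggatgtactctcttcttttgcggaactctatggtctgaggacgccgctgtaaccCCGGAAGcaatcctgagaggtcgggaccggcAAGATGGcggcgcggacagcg
MRPS18A (chr6:43687762-43687871, minus strand): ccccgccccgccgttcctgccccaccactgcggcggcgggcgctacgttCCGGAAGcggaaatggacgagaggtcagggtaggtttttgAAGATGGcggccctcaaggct
MRPL33 (chr2:27771639-27771748, plus strand): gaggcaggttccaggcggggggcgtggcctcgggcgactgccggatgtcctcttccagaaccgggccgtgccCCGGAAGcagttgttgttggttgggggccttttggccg
MRPS22 (chr3:139343914-139344023, plus strand): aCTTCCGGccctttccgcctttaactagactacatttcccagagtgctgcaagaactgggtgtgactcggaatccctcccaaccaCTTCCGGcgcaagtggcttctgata
MRPS26 (chr20:3045972-3046081, plus strand): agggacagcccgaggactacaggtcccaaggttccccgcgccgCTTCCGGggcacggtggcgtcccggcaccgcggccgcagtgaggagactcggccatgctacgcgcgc
MRPS30 (chr5:44808867-44808976, plus strand): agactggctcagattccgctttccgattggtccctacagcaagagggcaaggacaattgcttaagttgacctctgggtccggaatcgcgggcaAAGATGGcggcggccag
MRPL49 (chr11:65122103-65122212, plus strand): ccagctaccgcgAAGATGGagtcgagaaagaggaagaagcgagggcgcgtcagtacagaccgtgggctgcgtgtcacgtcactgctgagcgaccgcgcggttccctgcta

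The ETS core was present in 28 of 67 members (41.8%), against 19.1% of promoters of all tested genes. AAGATGG was found in 23 of 67 members (34.3%), against 7.71%, and the promoters with a match to each core were 9 of 67 (13.4%), against 1.77%. These cores can overlap, since the ETS core ends in the AAG with which the YY1 core begins, and a match is a description of the letters, not a site of binding. Of 37 ETS matches in members, 27 had their centre within 50 bases of the start, with a median position of −19 bases, and of 24 YY1 matches 17 did, with a median of 12 bases after the start. Other motifs searched on both strands were found in few members: GCGCATGCG (NRF1) in 3 members (4.48% against 3.62%), CACGTG (the E-box bound by MYC) in 6 (8.96% against 9.99%) and AAGGTCA (the half-site of estrogen-related receptors) in 3 (4.48% against 2.46%). Large and small subunit genes carried the ETS core in 16 of 40 and 12 of 27 promoters, and the YY1 core in 14 of 40 and 9 of 27.

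**Figure D1:**
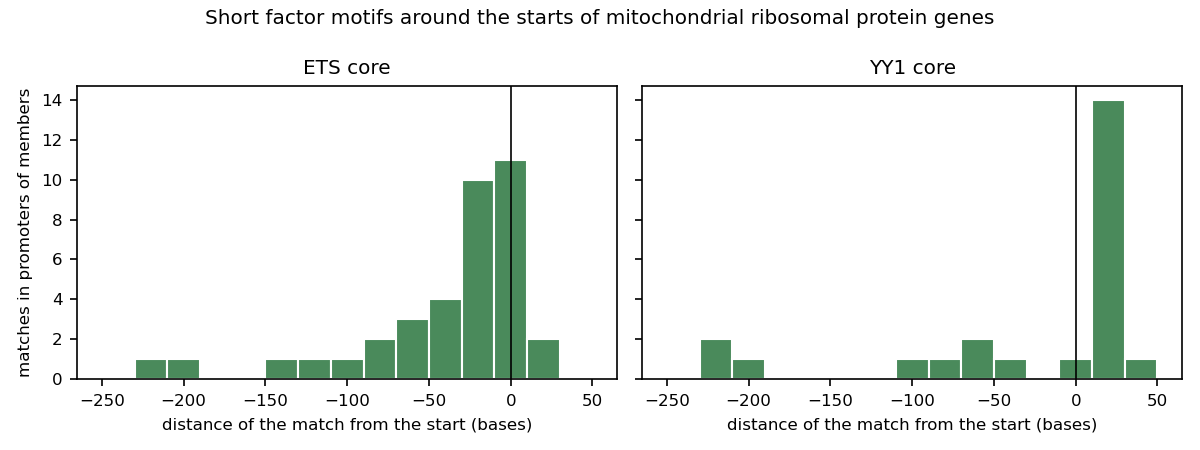
Histograms of the distance in bases from the gene start to the centre of each match, for the ETS core (37 matches, left) and the YY1 core (24 matches, right) in 67 promoters of members; the vertical line is the start. ETS matches lie mostly just before the start (median −19) and YY1 matches mostly just after it (median 12).

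Expression of the members was spread over a wide range. Per kilobase of the longest annotated coding transcript, mean control levels had a median of 48.0 CPM per kb, 49.1 for the large and 47.7 for the small subunit genes. MRPL12, part of the stalk that recruits translation factors, was highest at 144 CPM per kb and MRPS24 lowest at 1.53 CPM per kb. MRPS24 had between 1.10 and 1.66 CPM in every library; its exons are shared, on the same strand, with the readthrough symbol URGCP-MRPS24, which was listed at 0 counts in all libraries. Raw counts of members ran from 26 (MRPS24) to 5713 (MRPL19), and all 76 passed the filter on low counts.

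With siL1, most of the change was downward. Of 76 members, 37 fell, 4 rose and 35 did not pass the test at an adjusted p of 0.05 (edgeR, Benjamini-Hochberg over 13322 genes). Among all genes tested 50.4% were called, 25.7% lower and 24.7% higher, against 48.7% lower and 5.26% higher among the members. The median log2 fold change of the members was −0.14, beside −0.01 for all genes. A change of at least 0.5 in size was reached by 5 of the 76 members, against 2744 of the 13322 genes tested. With libraries of the same replicate number taken as pairs, 45 fell and 4 rose. Levels are shares of each library's reads and each library is a bulk sample, so fewer cells expressing a gene and less of its RNA per cell cannot be told apart.

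Of the large subunit, MRPL44, a protein of that subunit with an RNase III-like fold, fell most. It was at 41.9 and 42.8 CPM in siControl, 19.2 and 17.8 with siL1, and 35.9 and 35.6 with siL2. Both siL1 libraries lay under 50% of the lowest control, and the siL2 libraries lay between the groups without overlapping either. Its log2 fold change was −1.19 ± 0.0679 with siL1 (adjusted p = 3.07e-08) and −0.25 ± 0.0623 with siL2 (adjusted p = 0.00574). MRPL4, a homologue of the bacterial protein L4 that lines the exit tunnel, had 112 and 109 CPM in siControl, 73.6 and 65.9 with siL1, and 82.9 and 78.0 with siL2. The 4 libraries of the LSD1 siRNAs were all below the controls, and the log2 fold changes were −0.66 ± 0.0563 and −0.46 ± 0.0553 (adjusted p = 1.01e-06 and 2.18e-05).

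Among the small subunit genes, MRPS9, the homologue of bacterial S9, whose tail reaches the tRNA in the decoding site, led the falls with siL1. Its levels were 72.0 and 70.4 CPM in siControl, 38.3 and 38.9 with siL1, and 54.1 and 58.0 with siL2. The order siControl, siL2, siL1 was free of overlap, with log2 fold changes of −0.88 ± 0.0577 and −0.35 ± 0.0554 (adjusted p = 1.08e-07 and 2.12e-04). MRPS25, a mitochondrion-specific protein mutated in a rare mitochondrial encephalomyopathy, followed the same order at 98.8 and 100.2 CPM, 63.4 and 61.1 with siL1, and 84.8 and 83.7 with siL2. Its log2 fold change was −0.67 ± 0.0468 with siL1 and −0.24 ± 0.0454 with siL2 (adjusted p = 1.72e-07 and 7.38e-04). MRPS26, also without a bacterial homologue, had 65.1 and 61.4 CPM in siControl, 44.4 and 40.6 with siL1, and 41.7 and 41.3 with siL2. Here the libraries of the LSD1 siRNAs overlapped each other and stayed below the controls, with log2 fold changes of −0.57 ± 0.0608 and −0.61 ± 0.0605 (adjusted p = 7.27e-06 and 4.31e-06).

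The rises with siL1 were few and small. MRPL33, a large subunit protein kept from bacteria, went from 44.9 and 42.4 CPM to 49.9 and 52.5 with siL1 and to 63.1 and 57.8 with siL2. MRPS22, a mitochondrion-specific protein whose mutation causes cardiomyopathy in infants, went from 70.9 and 77.2 CPM to 85.0 and 87.3 with siL1 and to 89.9 and 95.9 with siL2. These were the members called higher with each LSD1 siRNA (3 with MRPL19 in the paired fit), by log2 fold changes of 0.24 and 0.47 for MRPL33 (adjusted p = 0.00806 and 5.90e-05) and of 0.22 and 0.32 for MRPS22 (adjusted p = 0.00500 and 4.15e-04). That pair of calls was held by 2 of the 76 members, against 13.1% of all genes tested. MRPL19, a protein of the face between the subunits, rose with siL1 from 206 and 202 CPM to 220 and 226 CPM (log2 fold change 0.13, adjusted p = 0.0130), and MRPS15, an early RNA-binding protein of small subunit assembly, from 76.9 and 81.2 CPM to 88.1 and 86.9 CPM (log2 fold change 0.15, adjusted p = 0.0195). None of these 4 calls with siL1 held in every fit that left out 1 library: MRPL33 and MRPL19 missed the threshold without siControl replicate 2 (adjusted p = 0.0715 and 0.0798) and without siL1 replicate 2 (0.0727 and 0.106), MRPS22 without siControl replicate 1 (0.0596), and MRPS15 without siControl replicate 1 (0.156), siL1 replicate 1 (0.0831) or siL1 replicate 2 (0.0659), nor was MRPS15 called by DESeq2 (0.0556). The number of members called higher was 2 without siControl replicate 1, 2 without siControl replicate 2 and 1 without siL1 replicate 2.

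**Figure D2:**
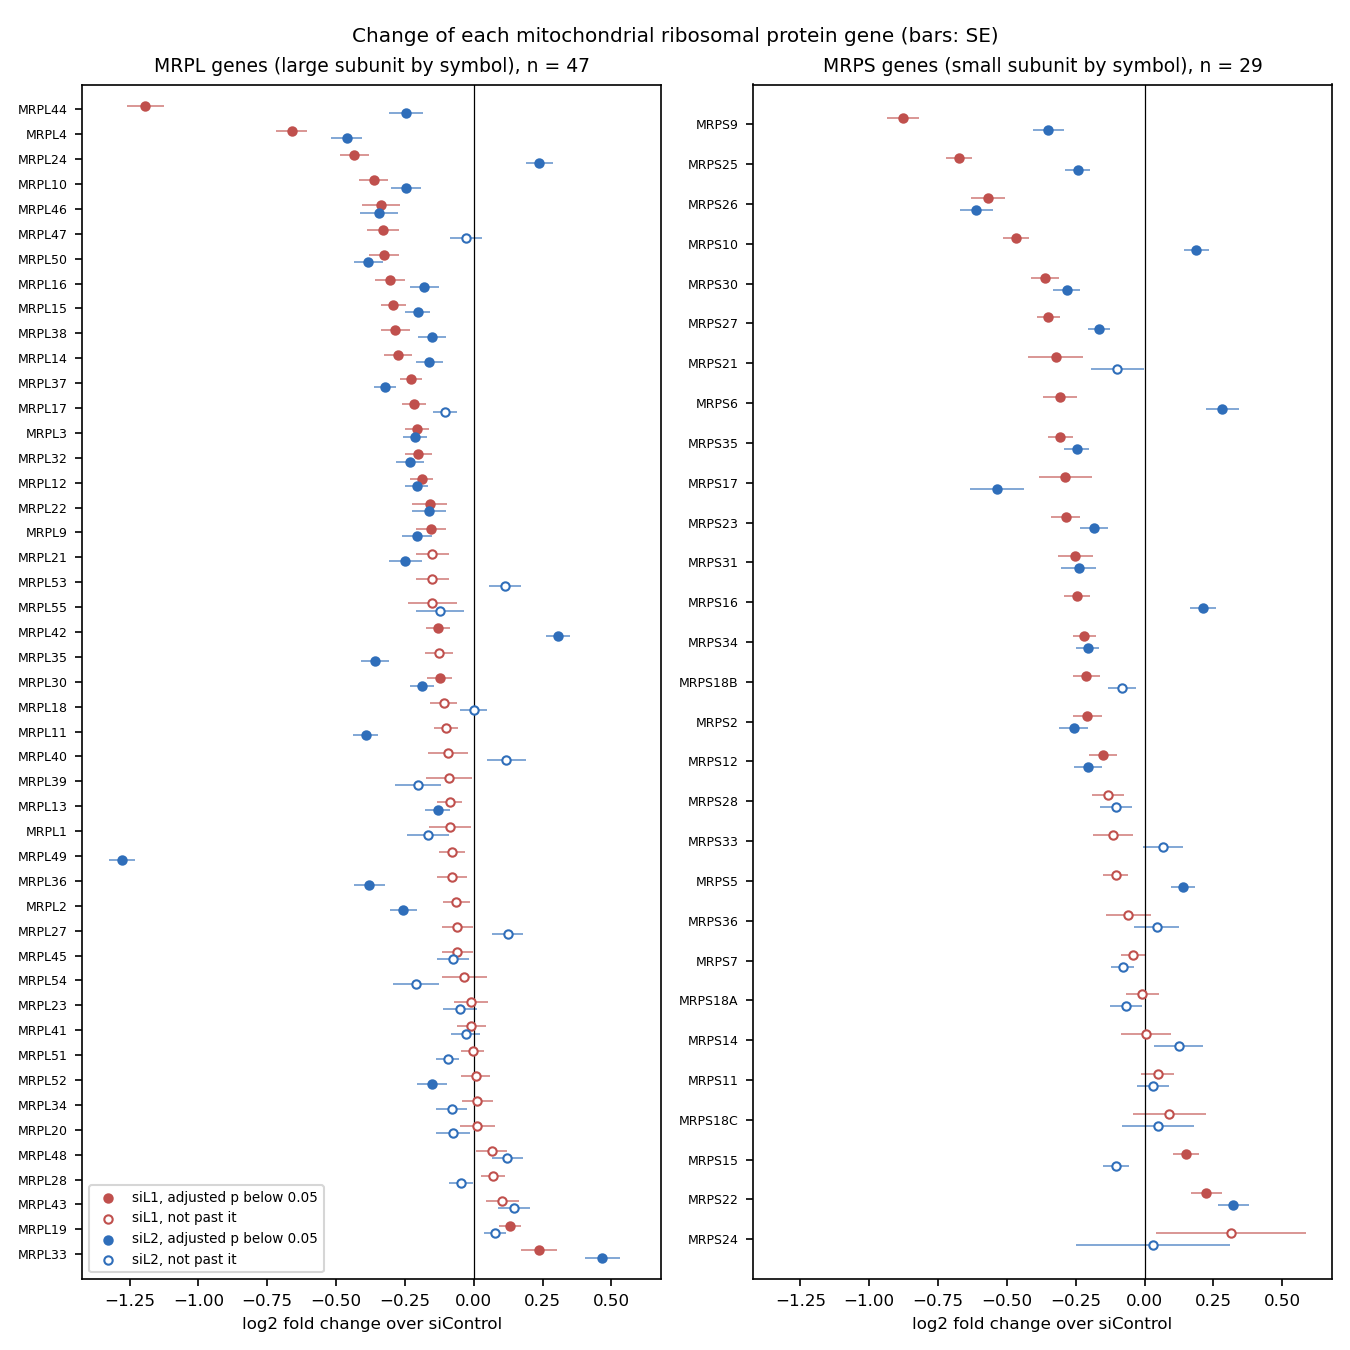
Log2 fold change over siControl (x axis) of each of the 47 MRPL genes (left) and 29 MRPS genes (right), ordered by the change with siL1; red points are siL1, blue points siL2, bars are the SE of the edgeR fit, and filled points passed an adjusted p of 0.05. Most points lie left of 0 with either siRNA, and MRPL44, MRPL49 and MRPS9 lie farthest from it.

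With siL2, 36 members fell, 8 rose and 32 did not pass the test (47.4% lower and 10.5% higher), where 45.8% of all genes were called, 23.3% lower and 22.6% higher. The median log2 fold change of the members was again −0.14, beside −0.00 for all genes. A change of at least 0.5 in size was reached by 3 of the 76 members, against 2345 of the 13322 genes tested. In the paired fit 43 fell and 12 rose. Called lower with each siRNA were 28 members, 16 large and 12 small subunit genes (34 members in the paired fit); 12.2% of all genes tested had that pair of calls. The 2 siRNAs share their control libraries, so that a high or low control moves each comparison alike, and 16 of the 28 kept both calls under every alternative analysis tried.

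MRPL49, a mitochondrion-specific protein of the large subunit, showed the largest change of any member with siL2. It was at 144 and 155 CPM in siControl, 143 and 139 with siL1, and 61.6 and 62.0 with siL2. The siL2 libraries stood far below all others, while the siL1 libraries lay just under the controls and did not pass the test. The log2 fold change was −1.28 ± 0.0487 with siL2 (adjusted p = 1.08e-09) and −0.08 ± 0.0460 with siL1 (adjusted p = 0.175). Exons of MRPL49 overlap on the opposite strand those of SYVN1, a ubiquitin ligase, and FAU, a cytosolic ribosomal protein, and no strand setting is given in the sources used here, so that reads of these genes may not be told apart. SYVN1 changed by −0.74 with siL2 (adjusted p = 1.71e-06) and FAU by −0.19 (adjusted p = 0.00179), and their part in the value for MRPL49 was not tested.

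Other falls with siL2 were of moderate size. MRPS17, a primary rRNA-binding protein, went from 17.3 and 19.0 CPM to 15.8 and 13.9 with siL1 and to 12.3 and 12.8 with siL2 (log2 fold changes −0.29 and −0.54, adjusted p = 0.0234 and 5.94e-04). The call with siL1 was lost without siControl replicate 2 (adjusted p = 0.163) and without siL1 replicate 2 (0.182), and in DESeq2 (0.107). MRPL11, of the stalk base, had 125 and 126 CPM in siControl and 93.9 and 97.6 CPM with siL2 (log2 fold change −0.39, adjusted p = 1.58e-05); with siL1 its change was −0.10, with an adjusted p of 0.0809, or 0.0166 in the paired fit. MRPL50 and MRPL37, both mitochondrion-specific, fell with each siRNA. Their log2 fold changes were −0.33 and −0.38 for MRPL50 and −0.23 and −0.32 for MRPL37, with adjusted p of 4.12e-04 or less; between the siRNAs MRPL37 differed by −0.09 (adjusted p = 0.0719, or 0.0187 in the paired fit). MRPL12 changed by −0.19 and −0.21 (adjusted p = 0.00220 and 0.00122). MRPS12, at the decoding site, changed by −0.15 and −0.20 (adjusted p = 0.0268 and 0.00557), and its call with siL1 was lost in each fit that left out 1 siControl or siL1 library (adjusted p 0.0599 to 0.110) and in DESeq2 (0.120) and with upper quartile scaling (0.0569), and that with siL2 without siL2 replicate 1 (0.0724).

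**Figure D3:**
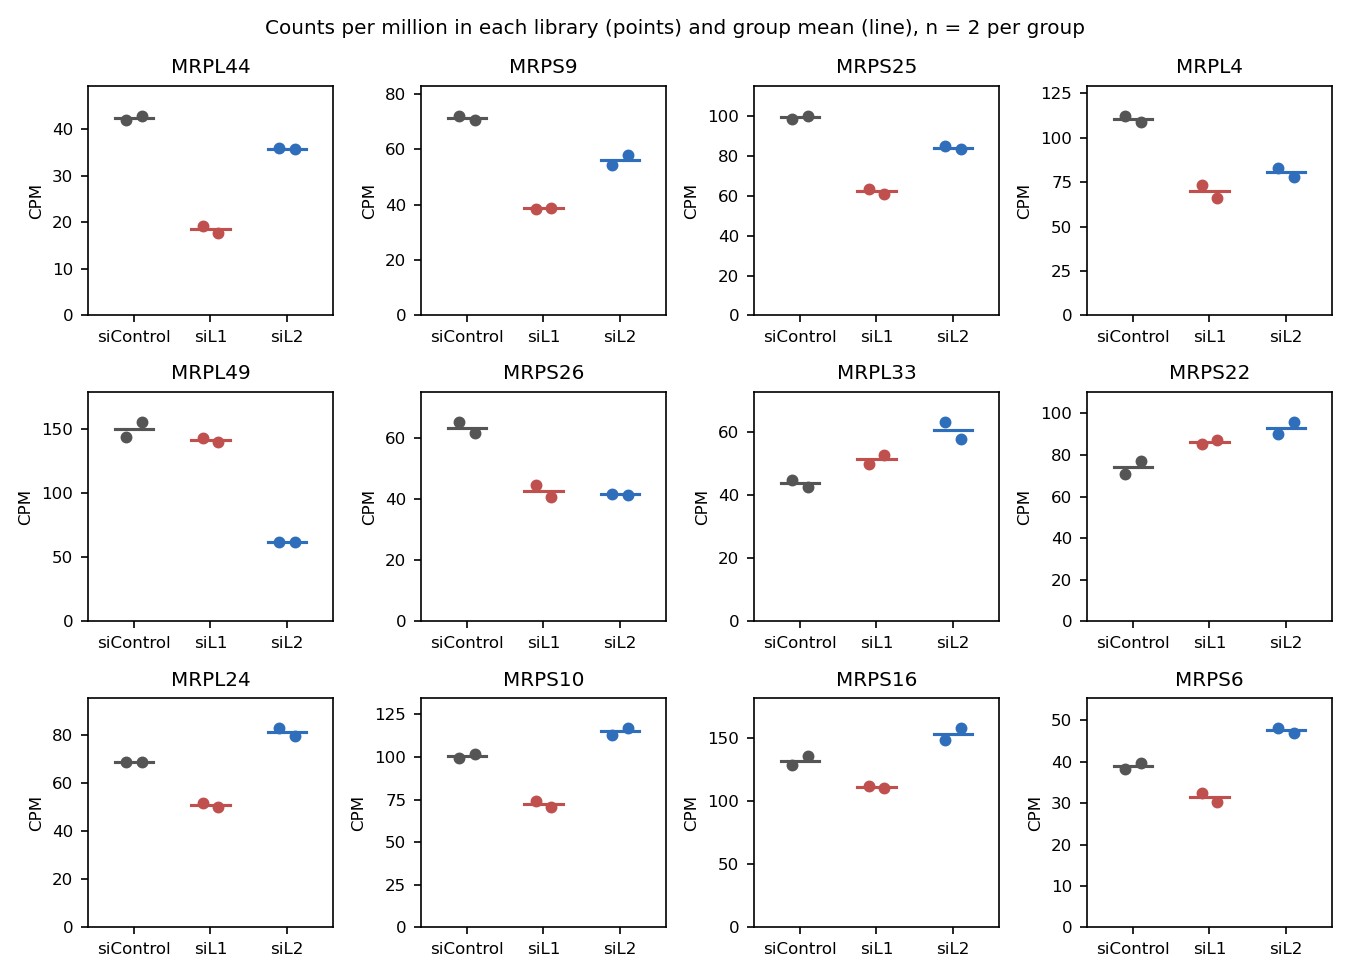
CPM of 12 members (y axis, from 0) in each library; points are libraries, lines are group means, n = 2 per group. MRPL44 is lowest with siL1 and MRPL49 with siL2, MRPS26 is lower with each, and MRPL24, MRPS10, MRPS16 and MRPS6 lie under the controls with siL1 and above them with siL2.

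Members moved in opposite directions with the siRNAs in 5 cases, each of them lower with siL1 and higher with siL2, and 3 of the 5 kept both calls under every alternative tried; 2.18% of all genes tested had that pair of calls. In the paired fit 6 members were lower with siL1 and higher with siL2, MRPS5 being added, and 1, MRPS15, was higher with siL1 and lower with siL2. MRPL24, whose bacterial homologue starts the assembly of the large subunit, was at 68.8 and 68.8 CPM in siControl, 51.6 and 49.98 with siL1, and 83.0 and 79.8 with siL2. MRPS10, a protein of the small subunit head, was at 99.5 and 101.7 CPM, 74.2 and 70.8 CPM, and 113 and 117 CPM. In both genes the 3 groups were apart, and the log2 fold changes were −0.43 and 0.24 for MRPL24 (adjusted p = 1.71e-05 and 0.00148) and −0.47 and 0.19 for MRPS10 (adjusted p = 4.60e-06 and 0.00458). Without siL2 replicate 2 the rise of MRPS10 had an adjusted p of 0.0501.

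MRPS16, the first gene of the family linked to an inherited mitochondrial disease, was at 129 and 136 CPM in siControl, 112 and 111 with siL1, and 149 and 158 with siL2. MRPS6 had 38.3 and 39.7 CPM, 32.5 and 30.3 CPM, and 48.1 and 46.96 CPM. Again no groups overlapped, and the log2 fold changes were −0.25 and 0.21 for MRPS16 and −0.31 and 0.28 for MRPS6 (adjusted p of 0.00234 or less in each comparison). MRPL42, a mitochondrion-specific protein, changed by −0.13 with siL1 (adjusted p = 0.0282) and by 0.31 with siL2 (adjusted p = 9.22e-05). Its fall with siL1 was not past the threshold in DESeq2 (adjusted p = 0.121), with upper quartile scaling (0.0663), or in fits that left out siControl replicate 1 (0.0575), siControl replicate 2 (0.112), siL1 replicate 1 (0.0906) or siL1 replicate 2 (0.0855). MRPS6 shares exons on the same strand with SLC5A3, a myo-inositol transporter, which changed by −0.34 and 0.40, and MRPS16 with DNAJC9, which changed by 0.01 and 0.29; the part of these reads in the members' values was not tested.

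The difference between the siRNAs was itself tested. Higher with siL2 than with siL1 were 16 members and lower 8, with 52 not past the threshold; 46.8% of all genes were called in that comparison, 23.2% higher and 23.7% lower, against 21.1% and 10.5% of the members. In the paired fit the counts were 28 higher and 12 lower. MRPL44 differed by a log2 value of 0.95 ± 0.0682 (adjusted p = 2.81e-07), MRPL24 by 0.67, MRPS10 by 0.66, MRPS6 by 0.59 and MRPS9 by 0.53. In the other direction MRPL49 differed by −1.20 ± 0.0486 (adjusted p = 2.67e-09). MRPL36, at 58.1 and 61.8 CPM in siControl, 56.3 and 56.998 with siL1, and 46.6 and 45.9 with siL2, differed by −0.30 and MRPL35 by −0.23. Both are short proteins kept from the bacterial ribosome, and their changes with siL1 were −0.08 and −0.13 (adjusted p = 0.257 and 0.0560; for MRPL35 0.0100 in the paired fit). MRPS15 differed by −0.25 between the siRNAs, and its change with siL2 was −0.10 (adjusted p = 0.0990, or 0.0305 in the paired fit).

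**Figure D4:**
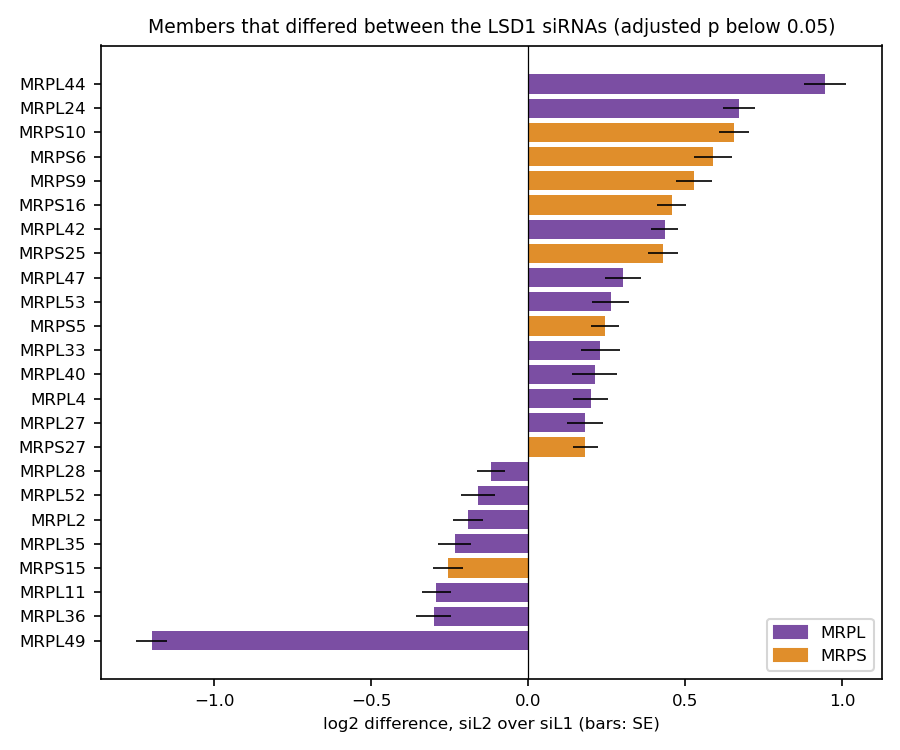
Log2 difference of siL2 over siL1 (x axis) for the 24 members that passed an adjusted p of 0.05; bars start at 0, error bars are SE, purple is MRPL and orange MRPS. MRPL44 (0.95) and MRPL49 (−1.20) are at the ends, and 7 of the 8 small subunit genes shown lie above 0. These 7 are 24.1% of the small subunit genes, beside 23.2% of all genes tested called higher.

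Comparing the subunits, large and small subunit genes shared the downward shift with each siRNA but stood in a different order. With siL1, 20 of 47 large subunit genes fell and 2 rose (median log2 fold change −0.12), and 17 of 29 small subunit genes fell and 2 rose (median −0.21). With siL2, 24 of 47 large subunit genes fell and 3 rose (median −0.16; 29 and 7 in the paired fit), and 12 of 29 small subunit genes fell and 5 rose (median −0.10). With siL1 the falls were 42.6% of large and 58.6% of small subunit genes, and the rises 4.26% and 6.9%. With siL2 the falls were 51.1% and 41.4%, and the rises 6.38% and 17.2%. Among all genes tested, 25.7% fell and 24.7% rose with siL1, and 23.3% fell and 22.6% rose with siL2. The 8 members called lower with siL2 and not called with siL1 were all large subunit genes: MRPL2, MRPL11, MRPL13, MRPL21, MRPL35, MRPL36, MRPL49 and MRPL52. That pair of calls was found in 9.28% of all genes tested, so 8 of 76 members is near the share over all genes. In the paired fit 4 of these 8 were also called lower with siL1, MRPL11, MRPL13, MRPL21 and MRPL35 (adjusted p = 0.0166, 0.0393, 0.00269 and 0.0100). Between the siRNAs, 7 small subunit genes were higher with siL2 and 1 lower, and 9 large subunit genes were higher and 7 lower (12 and 2, and 16 and 10, in the paired fit). The shares were 24.1% higher and 3.45% lower for the small subunit and 19.1% and 14.9% for the large. Among all genes tested they were 23.2% and 23.7%, so the small subunit rises were near the share over all genes and its falls were below it. The members of a subunit are not replicates, so no test was made over them.

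Summed over the genes, the large subunit had 3814 and 3928 CPM in siControl, 3511 and 3474 with siL1, and 3478 and 3509 with siL2. The sum was 90.2% of the control mean with siL1 and 90.3% with siL2, and the LSD1 siRNA libraries overlapped each other and lay below the controls. For the small subunit the sums were 2170 and 2236 CPM in siControl, 1874 and 1870 with siL1, and 2041 and 2095 with siL2, or 85.0% and 93.8% of the control mean. All groups were apart here, with siL1 lowest. The ratio of the small to the large subunit sum was accordingly 0.569 in each control library, 0.534 and 0.538 with siL1, and 0.587 and 0.597 with siL2.

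The rise of that ratio with siL2 was smaller without MRPL49. Over siControl the mean ratio differed by −0.0331 with siL1 and by 0.0226 with siL2. Leaving out each member in turn gave −0.0389 (without MRPL4) to −0.0252 (without MRPS25) for siL1 and 0.0104 (without MRPL49) to 0.0302 (without MRPL42) for siL2. Without MRPL49 the ratios were 0.591 and 0.593 in siControl, 0.556 and 0.561 with siL1, and 0.597 and 0.608 with siL2, so the order of the groups was the same and the gap between siControl and siL2 was smaller.

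**Figure D5:**
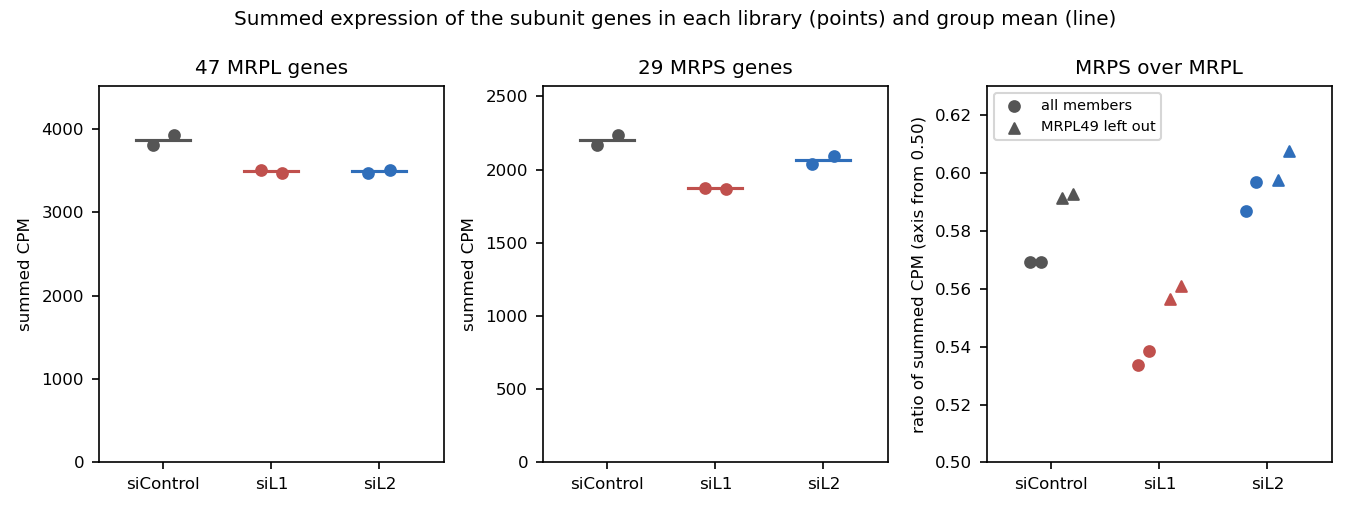
Summed CPM of the 47 MRPL genes (left) and the 29 MRPS genes (middle), and the ratio of the MRPS to the MRPL sum (right, axis from 0.50), in each library; points are libraries and lines are group means. The small subunit sum is lowest with siL1 (1874 and 1870 CPM), and the ratio lies at 0.569 in the controls, below that with siL1 and above it with siL2, also with MRPL49 left out (triangles).

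Symbols do not always name the subunit in which a protein sits. Structures of the mammalian particle place MRPS30 and MRPS18A in the large subunit, and MRPS36 belongs to the 2-oxoglutarate dehydrogenase complex rather than to the ribosome. MRPS30 fell from 114 and 119 CPM to 87.2 and 93.7 with siL1 and to 94.9 and 97.3 with siL2 (log2 fold changes −0.36 and −0.28, adjusted p = 6.63e-05 and 4.87e-04). MRPS18A, between 38.1 and 41.0 CPM in every library, and MRPS36, between 22.7 and 26.1 CPM, passed the test with neither siRNA. Placed by structure, the ratio of small to large subunit sums was 0.502 and 0.502 in siControl, 0.474 and 0.475 with siL1, and 0.522 and 0.530 with siL2, in the same order as by symbol. Of the 3 paralogues of bacterial S18, MRPS18B changed by −0.21 with siL1 (adjusted p = 0.00353) and by −0.08 with siL2 (adjusted p = 0.197). MRPS18A changed by −0.01 and −0.07 and MRPS18C by 0.09 and 0.05, none of which passed the test.

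Grouped by origin, and by symbol for the subunit (so that MRPS30 counts as small), the small subunit genes without a bacterial homologue had the highest share of falls with each siRNA, a difference that was not tested. Of these 10, 8 fell and 1 rose with siL1 (median log2 fold change −0.30), and the same counts were found with siL2 (median −0.22). MRPS23, MRPS25, MRPS26, MRPS27, MRPS30, MRPS31, MRPS34 and MRPS35 fell with each siRNA, MRPS22 rose with each, and MRPS33 changed by −0.11 and 0.07 without passing the test. Of 18 small subunit genes with a bacterial homologue, 9 fell and 1 rose with siL1 (median −0.14), and 4 fell and 4 rose with siL2 (median −0.07). The siL2 shares were 22.2% each way, near the 23.3% lower and 22.6% higher of all genes tested. With siL1, 25.7% of all genes tested fell and 24.7% rose. Among large subunit genes, 14 of 29 with a bacterial homologue fell and 2 rose with siL1 (median −0.13), and 17 fell and 2 rose with siL2 (median −0.17; 19 and 4 in the paired fit). Of the 18 mitochondrion-specific ones, 6 fell and 0 rose with siL1 (median −0.09), and 7 fell and 1 rose with siL2 (median −0.14; 10 and 3 in the paired fit). MRPL44, MRPL49 and MRPL42 belong to this last set.

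Promoter matches went with no single response. Members with the ETS core were 2 higher, 13 lower and 13 not called with siL1 (median log2 fold change −0.12), and members without it 2 higher, 22 lower and 15 not called (median −0.16). With siL2 they were 4 higher, 10 lower and 14 not called (median −0.07), against 4, 20 and 15 (median −0.17). Members with the YY1 core were 0 higher, 13 lower and 10 not called with siL1, and 3 higher, 12 lower and 8 not called with siL2, with medians of −0.15 each time; those without it had medians of −0.15 and −0.11. The sequences shown above include MRPS10, lower with siL1 and higher with siL2, and MRPS18A, called with neither, which carry a match to each core.

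A number of members start close to another gene on the opposite strand. Such a neighbour, within 1000 bases and tested, was found for 19 of the 67 members with a promoter. Of 10 such members that fell with siL1, the neighbour fell in 2 and was not called in 8. Of 10 that fell with siL2, it fell in 1 (FAU, beside MRPL49), rose in 1 (ZNF189, beside MRPL50) and was not called in 8. Among all genes tested 25.7% fell with siL1 and 23.3% with siL2. With each siRNA, neighbours of members not called fell in more pairs than neighbours of members that fell, among them MRPL46 beside MRPS11. A rise beside a member not called was seen with siL2. These differences were not tested. MRPL46 and MRPS11 form such a pair within the family, with starts 320 bases apart. MRPL46 went from 38.4 and 43.0 CPM to 32.5 and 31.8 with siL1 and to 31.7 and 32.6 with siL2 (log2 fold change −0.34 each, adjusted p = 0.00126 and 0.00116). MRPS11 stayed between 38.6 and 41.2 CPM in all libraries, with log2 fold changes of 0.05 and 0.03 (adjusted p = 0.532 and 0.700). Exons of 21 members overlap those of another symbol, on the opposite strand in 17 and on the same strand in 4. With no strand setting given, such reads may not be told apart. MRPS25 overlaps NR2C2 on the opposite strand, which changed by 0.31 with siL1 and 0.41 with siL2. MRPL19 overlaps GCFC2 on the opposite strand, which changed by −0.27 and −0.39. The part of these reads in the members' values was not tested.

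The 3' untranslated regions were searched for 4 words of 7 letters that had been singled out in these data before. TACATTT and ACATTTA were taken as words of genes raised by both siRNAs, so rises of genes that hold them are no independent support. For each gene the longest such region among its GENCODE v29 coding transcripts was taken. Members have short regions, with a median of 493.5 bases, against 1410 for the 11457 genes searched, and each word was rarer in them. TACATTT occurred in 10 of 76 members (13.2% against 26.9% of genes), ACATTTA in 9 (11.8% against 22.3%), ACAGAGC in 7 (9.21% against 17.8%) and GTTACAA in 3 (3.95% against 9.5%). Of the 9 members with ACATTTA, 3 were called higher, 5 lower and 1 not with siL1. Sites of it, in capitals within 25 bases, are shown for MRPL33, MRPS22 and MRPL19, which are 3 of the 4 members called higher with siL1; the region annotated for MRPS22 is only 32 bases long.
MRPL33: cattgcatcACATTTAtttatcttt
MRPS22: tttaaaaatACATTTAttttactaa
MRPL19: agaaatagaACATTTAttaatatgt

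Of the 14 members with TACATTT or ACATTTA, 3 were higher and 7 lower with siL1 and 4 higher and 3 lower with siL2, with median log2 fold changes of −0.12 and 0.01. The 62 without either had 1 higher and 30 lower with siL1 and 4 higher and 33 lower with siL2, with medians of −0.15 and −0.16. Among all genes searched, the medians with and without were 0.04 and −0.03 for siL1 and 0.05 and −0.03 for siL2. Because these words came from genes raised by both siRNAs in the same data, these contrasts cannot serve as a test of them. MRPL44, MRPL49 and MRPS9, the members with the largest falls, held none of the 4 words.

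A further 7 ribosomal proteins go by other symbols and were examined as context. With each siRNA 4 of the 7 fell (57.1%, beside 25.7% of all genes tested with siL1 and 23.3% with siL2) and 0 rose. PTCD3, a pentatricopeptide protein of the small subunit, was at 132 and 135 CPM in siControl, 101 and 107 with siL1, and 70.5 and 69.5 with siL2 (log2 fold changes −0.36 and −0.93, adjusted p = 3.80e-05 and 1.17e-08). MRP63 changed by −0.50 and −0.22 (adjusted p = 6.32e-06 and 0.00329). ICT1, a peptidyl-tRNA hydrolase built into the large subunit, changed by 0.01 with siL1 (adjusted p = 0.917) and by −0.32 with siL2 (adjusted p = 0.00201).

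Assembly factors of the particle went the same way, with 15 of 27 lower and 0 higher with siL1 (median log2 fold change −0.22) and 13 lower and 1 higher with siL2 (median −0.16, and 16 and 2 in the paired fit). The shares lower were 55.6% and 48.1%, beside 25.7% and 23.3% of all genes tested. RPUSD4, which modifies mitochondrial rRNA, changed by −0.55 and −0.59, RNMTL1, an rRNA methyltransferase, by −0.40 and −0.53, and MTERFD1 by −0.46 and −0.40, with adjusted p of 2.27e-04 or less. Of 15 translation factors and mRNA-binding proteins, 12 fell and 0 rose with siL1 (80% lower, median −0.31), and 6 fell and 0 rose with siL2 (40% lower, median −0.09, and 8 and 1 in the paired fit). LRPPRC, which stabilises mitochondrial mRNAs, changed by −0.37 and −0.24 (adjusted p = 3.73e-06 and 1.42e-04). GFM1, the elongation factor G of mitochondria, changed by −0.38 with siL1 (adjusted p = 1.13e-05) and by −0.09 with siL2 (adjusted p = 0.109, or 0.0253 in the paired fit), and the siRNAs differed by 0.30 (adjusted p = 1.13e-04). In this list 9 genes were higher with siL2 than with siL1 and 1 lower (60% and 6.67%, beside 23.2% and 23.7% of all genes tested).

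Among 16 mitochondrial aminoacyl-tRNA synthetases, which charge the tRNAs, 7 fell and 0 rose with each siRNA. The share lower was 43.8%, beside 25.7% of all genes with siL1 and 23.3% with siL2. LARS2 changed by −0.40 and −0.57 (adjusted p = 1.62e-05 and 8.44e-07) and YARS2 by −0.32 and −0.66 (adjusted p = 8.13e-04 and 2.97e-06). Of 11 regulators of mitochondrial gene expression, 3 fell and 1 rose with siL1 (27.3% lower, beside 25.7% of all genes; 6 and 1 in the paired fit) and 6 fell and 0 rose with siL2 (54.5% lower, beside 23.3%). MYC had 313 and 351 CPM in siControl, 237 and 252 with siL1, and 195 and 216 with siL2 (log2 fold changes −0.44 and −0.70, adjusted p = 6.10e-05 and 1.32e-06). PPRC1, a coactivator of the PGC-1 family, changed by −0.49 and −0.41 (adjusted p = 1.03e-05 and 5.08e-05). The regulator that rose with siL1 was PPARGC1A, which missed the threshold in DESeq2 (log2 fold change 0.50, adjusted p = 0.0807). Its change with siL1 was 0.43 without siControl replicate 2 and 0.38 without siL1 replicate 1. TFAM, which packages mitochondrial DNA and starts its transcription, was at 250 and 257 CPM in siControl, 229 and 249 with siL1, and 89.6 and 93.5 with siL2. Its log2 fold change was −1.47 with siL2 (adjusted p = 2.85e-10) and −0.08 with siL1, where the adjusted p was 0.171, 0.0185 in the paired fit and 0.0327 without siL1 replicate 2.

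Averaged over the siRNAs, 39 members were lower than in siControl and 3 higher, with a median log2 fold change of −0.15, where 49.3% of all genes were called, 26% lower and 23.2% higher, against 51.3% and 3.95% of the members. In the paired fit 45 were lower and 5 higher.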

How the data were processed

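Per the labels, total RNA of 6 MDA-MB231 samples was made into Illumina libraries. The authors deposited raw counts per gene symbol; per the submitters' processing notes the tools were TopHat 1.3.3, HTSeq and DESeq, with build hg19. Strand setting and annotation release are not given in the sources used here. The deposited table's own fold changes and p-values were not used.

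CPM were counts over the library total. The 13322 genes that passed edgeR's expression filter by group (10046 left out) were fitted together over all 6 libraries with TMM scaling and the quasi-likelihood test (edgeR 4.0.16, R 4.3.3; two-sided, 3 residual degrees of freedom, Benjamini-Hochberg, threshold 0.05; common coefficient of variation 3.72%). Standard errors are of the fitted log2 fold change. On simulated counts for siL1 against siControl (13278 genes) the test found 44, 33, 40 and 47 of 50 genes planted at log2 changes of −1, −0.5, 0.5 and 1, with 14 false calls. The simulation changed few genes and drew libraries independently, whereas 50.4% of genes were called with siL1 in the data. Its rates therefore need not hold for these data. Same-numbered libraries deviated together (correlations 0.133 to 0.198), so a fit with the replicate number as block ("paired fit") is given where it changes the call of a named gene or moves a count by over 1.5 times, and for some other counts. Duplicates differed by more than sampling noise (chi-square over degrees of freedom 3.03 to 3.25).

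Members and lists were chosen with earlier results of these data known. The genes named are the 5 largest rises and falls per comparison among calls whose groups do not overlap, up to 6 called alike and all called oppositely with the siRNAs, fixed paralogues, and up to 3 genes per further list. SYVN1, FAU, SLC5A3, DNAJC9, ZNF189, NR2C2, GCFC2, MRPL46, MRPS11 and MRPS24 were added after their values were seen. Alternatives were DESeq2 1.42.0 (its test, or its size factors), limma-voom (limma 3.58.1), upper quartile scaling, no filter, a filter of 1 CPM in 2 libraries, only the groups compared, the block, each library left out, subunits by structure or with other symbols added, and, added after seeing the data, MRPL49 or MRPL44 and MRPS9 left out. GENCODE v29 gave transcript lengths, untranslated regions and overlaps.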

Additional observations from a re-analysis of the deposited data

How the results depend on the processing

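With 2 libraries a group the fits rest on few residual degrees of freedom, and depth limits little: MRPS24 was the only member under 50 counts in a library. Kept under every alternative were 29 of the 37 members lower and 0 of the 4 higher with siL1, 24 of 36 and 6 of 8 with siL2, and 12 of the 16 higher and 5 of the 8 lower with siL2 against siL1. Leaving out 1 library gave 1 to 4 members higher and 30 to 37 lower with siL1, 7 to 8 and 27 to 36 with siL2, 2 to 3 and 31 to 40 on average, and 13 to 17 and 6 to 7 between the siRNAs. With the replicate block 5 members were higher on average and 28 higher with siL2 than with siL1, and no call of a named gene was lost; upper quartile scaling gave 5 higher on average. The small minus large median was −0.0872 with siL1 (−0.0931 to −0.0703 leaving out a library), 0.0608 with siL2 (0.0495 to 0.0822; 0.0570 with limma-voom, 0.0703 with other symbols added, 0.0567 without MRPL49, 0.0654 without MRPL44 and MRPS9) and 0.0983 between them (0.0717 to 0.102; 0.0891 without MRPL44 and MRPS9). The difference of the subunit ratio from siControl with siL1 was −0.0277 by structure and −0.0291 without MRPL44 and MRPS9, and with siL2 0.0104 without MRPL49. Among the genes named in the text, signs turned in these, none of them called in the comparison concerned: MRPS18A with siL1 (−0.0364 to 0.0151 leaving out a library, 0.00101 with DESeq2 size factors, 0.000947 with DESeq2, 0.00165 with only the groups compared, 0.0158 with upper quartile scaling), and, leaving out a library, ICT1 with siL1 (−0.0411 to 0.0575), MRPS18C (−0.0909 to 0.298 with siL1, −0.130 to 0.259 with siL2) and MRPS36 (−0.126 to 0.00626 with siL1, −0.0310 to 0.118 with siL2). The causes were not tested.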

Other observations

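Apart from the members, 3 symbols of the table carry a member's name, 1 antisense RNA and 2 pseudogenes, and belong to no comparison above. MRPL23-AS1 had 0 to 11 counts per library, MRPL42P5 28 to 56 counts and MRPL45P2 13 to 29 counts.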
